A study of Mus musculus with 8 samples.

Results

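The nuclear-encoded subunits of the respiratory chain were examined in mouse mammary epithelium at pregnancy day 14.5, with and without a conditional knockout of Bmpr1a. They were taken by gene symbol, and earlier results of these data were known at that time. The symbols were those of protein-coding genes named for subunits of complexes I (Nduf), II (Sdh), III (Uqcr and Cyc1), IV (Cox4 to Cox8) and V (Atp5). The rule took 87 of the 55933 genes, or of the 21900 protein-coding genes, with 38 in complex I, 4 in complex II, 9 in complex III, 18 in complex IV and 18 in complex V. These rows carry 86 symbols, since Atp5o has 2 rows.

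RNA-seq was performed on the epithelial cells of 4 control and 4 cKO females, 1 library a mouse, to compare the knockout with its controls. The cKO mice were K14-rtTA;teto-Cre;Bmpr1a fl/fl on a C57BL/6 background, and littermates, called WT in the labels, were the controls. Neither their alleles nor the start of treatment is given for these libraries. Cre is switched on by doxycycline, which was put in the drinking water until collection, and the K14 promoter drives it in myoepithelial cells. The glands were digested with collagenase and hyaluronidase and red blood cells were lysed, so a library holds the whole epithelial preparation, in which the targeted layer is a part. In such bulk RNA, fewer cells of a type and less RNA per cell cannot be told apart.

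The respiratory chain passes electrons from NADH and succinate to oxygen across the inner mitochondrial membrane. Complexes I, III and IV pump protons on the way, complex II feeds in electrons from succinate, and complex V lets the protons flow back to make ATP. Some subunits of every complex but II are encoded in mitochondrial DNA, and the genes described here supply the others from the nucleus. The secretory alveoli that form in pregnancy use much ATP, and the number of mitochondria in mammary epithelium rises towards lactation.

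The libraries held between 16123108 and 19896988 reads on genes. Bmpr1a RNA was 10.1 ± 1.28 FPKM (fragments per kilobase, which the authors had scaled with size factors) in the control and 11.2 ± 1.01 in the cKO group (SD, n = 4 each, two-sided exact permutation test, p = 0.257). The label cKO thus went without a lower level of the targeted RNA. The value is for the whole gene in a preparation of which the targeted layer is only a part. It therefore cannot show whether the allele was deleted in that layer, and each direction given for cKO rests on the label. The luminal marker Krt18 (1067 to 1663 FPKM) and the basal marker Krt14 (490 to 850 FPKM) were present in every library. Over all genes tested, 54.0% of the unadjusted calls given below were higher in cKO, against 32.2% when each library was scaled to the same sum of FPKM (TPM).

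The subunits were expressed over a wide range, with a median of 41.5 FPKM over the 81 that passed the filter described below. Complex IV held the highest values. Cox6a1, a subunit close to the dimer interface of cytochrome c oxidase, had a mean of 442 FPKM over the 8 libraries, and Cox8a had 381. In complex V the highest was Atp5b, the catalytic beta subunit of the F1 head (mean 293 FPKM). Uqcr10 led complex III (mean 111 FPKM). Ndufa4 led the genes named for complex I (mean 118 FPKM), although its protein is now counted with complex IV. In complex II the 4 means lay close together, from 30.1 FPKM for Sdhb, the iron-sulfur subunit, to 50.1 for Sdhd, a membrane anchor. Median levels were 33.2 FPKM in complex I, 36.6 in II, 73.5 in III, 78.7 in IV and 49.5 in V.

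**Figure D1:**
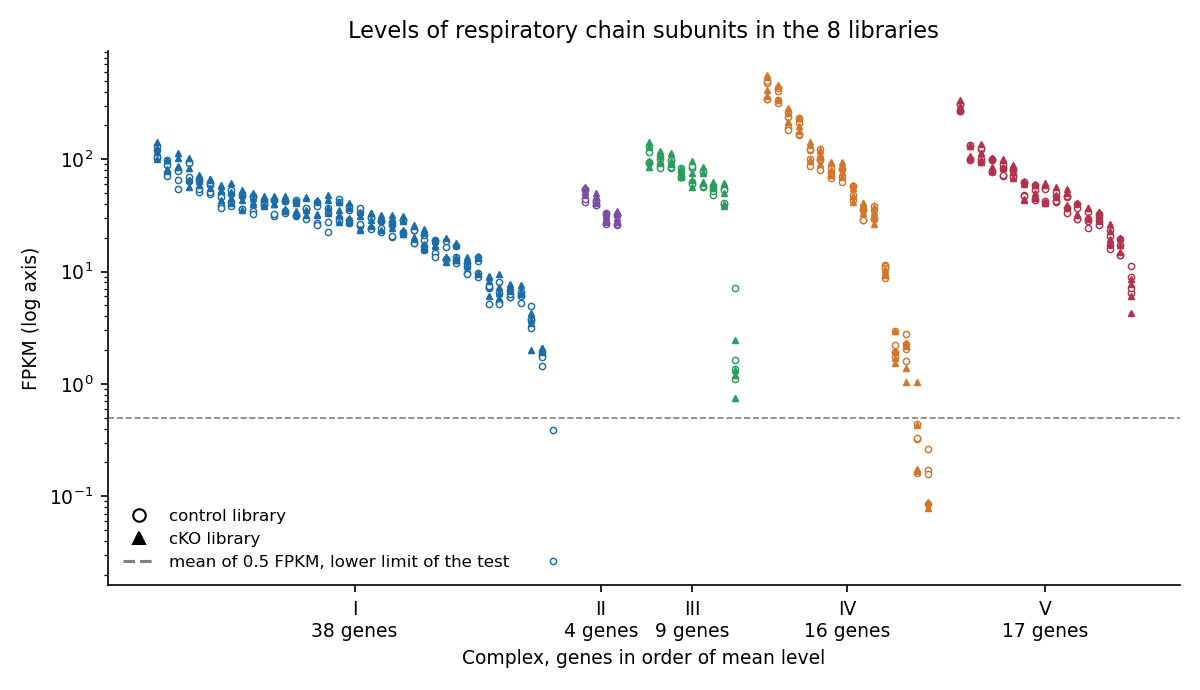
FPKM of each subunit with any reads in the 8 libraries (log axis), in order of mean within complexes I to V; circles are control and triangles cKO libraries, values of 0 are left out, and the dashed line marks a mean of 0.5 FPKM. Circles and triangles overlap for nearly every gene, and Cox6a1 in complex IV is the highest, with a mean of 442 FPKM.

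Complex IV subunits with tissue isoforms were almost wholly of the common isoform. Cox4i1 made up 98.8% to 99.6% of the Cox4 FPKM of a library, the rest being Cox4i2, an isoform known from lung and from hypoxia. The heart and muscle isoform Cox6a2 never had over 3 reads, while Cox6a1 had 4158 or more. Cox6b1 held 98.7% to 99.3% against the testis isoform Cox6b2. Cox8a held at least 99.8% against Cox8b, an isoform of heart, muscle and brown fat that had 1 to 7 reads a library. Cox7a1, the heart and muscle isoform, was the exception, with 8.74 to 11.4 FPKM, which was 8.89% to 14.0% of its sum with Cox7a2. Cox7b2 and Cox8c, both known from testis, had 0 reads in every library. A count of 0 allows up to 3 reads, which is at most 0.349 FPKM for Cox7b2 and 0.412 FPKM for Cox8c in a library, for counting error only. The c ring of complex V is built from a single mature protein encoded by 3 genes, of which Atp5g3 gave 47.3% to 51.6% of the FPKM, Atp5g2 38.7% to 42.9% and Atp5g1 8.30% to 9.96%. Ndufa4l2, the hypoxia-linked paralog of Ndufa4, gave 1.38% to 4.03% of the FPKM of that pair.

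Some subunits that every mitochondrion needs were listed far below their partners. Ndufs3, a core subunit of complex I, had 16 reads in control replicate 4, 1 in control replicate 2 and none in the others. A pseudogene, Gm12251, carries 75.7% of its longest transcript at 98% identity or more and had a mean of 4.67 FPKM. Uqcrc1, a core protein of complex III, was between 0.742 and 7.17 FPKM while its partner Uqcrc2 was between 48.2 and 62.1. Atp5a1, the alpha subunit of the F1 head, was between 4.26 and 11.2 FPKM while Atp5b was between 268 and 339. Ndufb2 was between 1.44 and 2.10 FPKM. Gapdh, a gene used by every cell, was likewise listed at 4.68 to 9.98 FPKM in every library but control replicate 3, which had 31.6. The reason for these low values was not tested, and they are read here as table values and not as the cells' content of the transcript. The second Atp5o row shares all of its exon bases with other genes and had 0 reads. In all, 19 of the 86 named subunits have a stretch of at least 100 bases at 98% identity or more in another gene, which leaves their values uncertain. For 10 of them the copied part is over 20% of the longest transcript, among them Ndufs5, Cox5b, Ndufb4, Uqcrb, Atp5h, Cox7c, Ndufa12 and Ndufb9.

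Promoters of respiratory chain genes are known for binding sites of NRF1, of the ETS factor GABPA and of YY1. Promoters from 250 bases before to 50 after the start were held in RefSeq (GRCm38.p6) for 69 of the subunits. At least 1 of the cores GCGCATGCG (NRF1), CCGGAAGT (GABPA) and AAGATGGCG (YY1), searched on both strands, lay in those of 19 subunits (27.5%), against 7.48% of the 27025 genes with a promoter of this length. These genes were taken whether expressed here or not, and no share was taken for expressed genes alone. NRF1 matched for 11.6% of the subunits and 1.95% of all genes, GABPA for 7.25% and 4.31%, and YY1 for 10.1% and 1.64%. A match on both strands at neighbouring bases is one palindromic NRF1 site. The promoters below are those of the subunit with the highest level among the holders of each core, and of Ndufc2, the subunit with the lowest p between the groups, in which none of the cores was found. Capitals mark the matches.
Cox6a1 (NRF1), chr5:115348909-115349208, minus strand: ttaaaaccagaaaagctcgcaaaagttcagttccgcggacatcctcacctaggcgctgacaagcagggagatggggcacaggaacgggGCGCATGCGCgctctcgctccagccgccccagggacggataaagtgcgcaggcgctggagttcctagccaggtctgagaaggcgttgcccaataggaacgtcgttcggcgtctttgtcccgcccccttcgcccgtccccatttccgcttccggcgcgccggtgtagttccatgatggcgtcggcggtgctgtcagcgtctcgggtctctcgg
Cox8a (GABPA), chr19:7217567-7217866, minus strand: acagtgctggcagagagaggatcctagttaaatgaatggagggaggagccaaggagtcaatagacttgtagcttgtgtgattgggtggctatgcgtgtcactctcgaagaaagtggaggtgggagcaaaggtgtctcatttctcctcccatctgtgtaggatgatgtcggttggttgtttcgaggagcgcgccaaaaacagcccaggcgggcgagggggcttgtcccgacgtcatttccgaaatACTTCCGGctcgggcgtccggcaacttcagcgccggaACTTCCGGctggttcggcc
Atp5j2 (YY1), chr5:145191492-145191791, minus strand: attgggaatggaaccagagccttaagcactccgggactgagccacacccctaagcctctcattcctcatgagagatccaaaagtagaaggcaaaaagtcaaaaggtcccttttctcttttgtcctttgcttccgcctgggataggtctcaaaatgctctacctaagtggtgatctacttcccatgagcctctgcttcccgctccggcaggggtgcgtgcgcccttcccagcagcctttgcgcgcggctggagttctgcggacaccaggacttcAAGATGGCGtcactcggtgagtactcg
Ndufc2 (none), chr7:97399753-97400052, plus strand: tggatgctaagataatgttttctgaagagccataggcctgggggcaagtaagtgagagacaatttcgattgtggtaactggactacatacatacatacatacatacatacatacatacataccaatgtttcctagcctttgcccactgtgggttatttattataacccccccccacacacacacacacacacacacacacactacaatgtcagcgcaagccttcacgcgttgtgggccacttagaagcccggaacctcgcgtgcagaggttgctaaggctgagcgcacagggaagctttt

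The first comparison asked whether subunit RNA differed between cKO and control epithelium. No subunit passed the adjusted threshold, and most lay slightly higher in cKO. Of the 87 subunits, 81 had a mean of at least 0.5 FPKM over the 8 libraries and were tested on log2(FPKM + 1) with limma, together with all 15143 genes that passed, and fold changes are on this scale. After Benjamini-Hochberg adjustment 0 of the 81 had a p under 0.05, where 0.892% of all genes had one. At an unadjusted p under 0.05, 6 of the 81 (7.41%) were higher in cKO and 0 were lower, where 8.85% of all genes were higher and 7.53% lower. These shares were near or under the background. With each library scaled to the same sum of FPKM, 6 of the 81 (7.41%) were again higher, where 5.19% of all genes were higher and 10.9% lower. With limma-voom on the recovered reads 7 of the 81 (8.64%) were higher at an unadjusted p under 0.05, where 8.76% of all genes were, and 0 passed after adjustment, where 1.57% of all genes did. The groups did not overlap for 2 subunits, Ndufc2 and Ndufb2, both higher in cKO (6.1% of all genes), and for 0 that were lower (4.6% of all genes).

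The log2 fold change was above 0 for 66 of the 81 subunits, against 50.2% of all genes, and its median was 0.10 against 0.00 for all genes. For 61 of the 81 the standard error was larger than this median. When each library was scaled to the same sum of FPKM, 53 of the 81 were above 0 with a median of 0.04, and the median of all genes was -0.05. By complex the median was 0.14 for I, 0.10 for II, 0.05 for III, 0.10 for IV and 0.09 for V. The median of the 81 was 0.05 without control replicate 1, 0.06 without control replicate 2, 0.04 without cKO replicate 3 and 0.07 without cKO replicate 4, while it was 0.16 without control replicate 4 and also without cKO replicate 1. With each library left out, the median of complex I ran from 0.07 to 0.19, of II from 0.04 to 0.15, of IV from 0.04 to 0.18 and of V from 0.03 to 0.16. That of complex III ran from -0.01 to 0.14, falling below 0 without cKO replicate 3 and without control replicate 2.

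**Figure D2:**
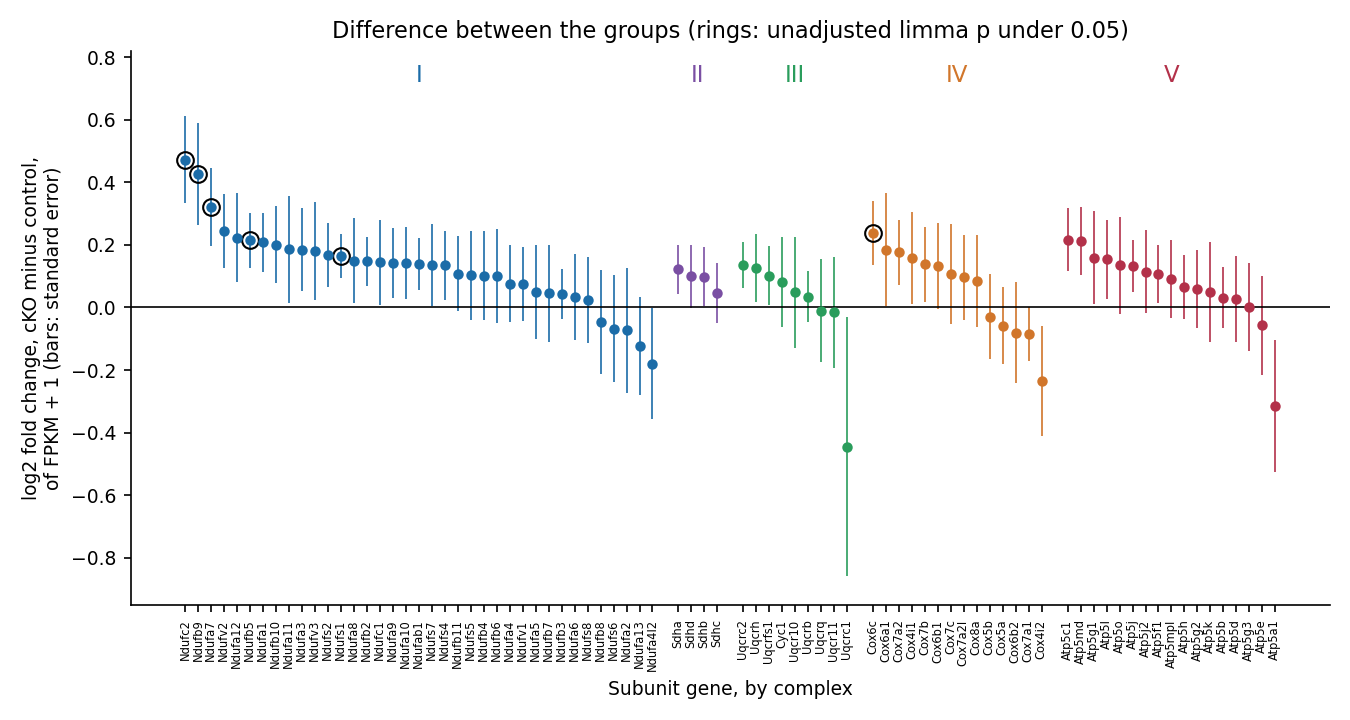
Log2 fold change (cKO minus control, on log2(FPKM + 1)) of the 81 subunits tested, with limma standard errors, in order within complexes I to V; rings mark an unadjusted p under 0.05. Of the 81 points 66 lie above 0, and the 6 ringed ones are 5 genes of complex I and Cox6c.

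Of the 37 complex I subunits tested 5 were higher at an unadjusted p under 0.05, where 8.85% of all genes were. Ndufc2, an accessory subunit of the membrane arm, lies on chromosome 7 from 97400003 to 97407802 (GRCm38). It had 65.6, 54.8, 79.8 and 78.9 FPKM in control replicates 1 to 4 and 87.7, 84.4, 113 and 102 FPKM in cKO replicates 1 to 4. The lowest cKO library was above the highest control library. The means were 69.8 ± 11.9 and 96.8 ± 13.2 FPKM (SD, n = 4 each). The log2 fold change was 0.47, with a standard error (SE) of 0.14, and the adjusted p by limma was 0.148 (0.00814 unadjusted). Replicates 1 and 2 alone gave a difference of 0.51, and replicates 3 and 4 alone 0.43.

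Ndufb9, another accessory subunit of the membrane arm, lies on chromosome 15 from 58933756 to 58939488. Its FPKM was 22.6, 27.6, 33.1 and 36.8 in the control and 33.5, 36.8, 43.0 and 48.5 in the cKO libraries. Control replicate 4 was above cKO replicate 1, so the groups overlapped. The log2 fold change was 0.43 (SE 0.16, adjusted p = 0.238 by limma). A same-strand gene, Gm49356, covers 19.5% of the exon bases of Ndufb9 and had a mean of 0.0900 FPKM. Ndufa7, an accessory subunit on chromosome 17 from 33824572 to 33838317, had 38.5, 36.8, 49.3 and 46.2 FPKM in control and 43.5, 53.1, 58.3 and 59.4 in cKO libraries. Only cKO replicate 1 lay within the control range. Its log2 fold change was 0.32 (SE 0.13, adjusted p = 0.25 by limma).

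The other complex I subunits differed less. Ndufv2, a core iron-sulfur subunit of the NADH-oxidising module, was 23.7 ± 3.72 FPKM in control and 28.2 ± 3.05 in the knockout (SD, n = 4 each), with a difference of 0.24 (SE 0.12, adjusted p = 0.346 by limma). Ndufb5 had a log2 fold change of 0.21 (SE 0.09, adjusted p = 0.269) and Ndufs1, the largest core subunit, one of 0.16 (SE 0.07, adjusted p = 0.281). Ndufa12, of which 29.1% is copied in Gm15920, had 0.22 (SE 0.14, adjusted p = 0.487). Ndufb2 did not overlap between the groups, with 1.44 to 1.93 FPKM in control and 1.93 to 2.10 in cKO libraries, but these were 140 to 216 reads and the adjusted p was 0.397. Of the 6 core subunits tested, all had a fold change above 0, from 0.02 to 0.24. Of the 29 accessory subunits 25 were above 0 and 4 below. The lowest of these was Ndufa13, known also as GRIM-19, at -0.12 (SE 0.16, adjusted p = 0.749).

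In complex II, which oxidises succinate and is shared with the citric acid cycle, the 4 subunits were tested and all had fold changes above 0 with small size. Sdha, the flavoprotein, had 39.4, 39.3, 41.4 and 43.7 FPKM in control and 41.2, 41.5, 49.9 and 46.5 FPKM in cKO libraries. Its log2 fold change was 0.12 (SE 0.08, adjusted p = 0.484 by limma). Sdhd had 0.10 (SE 0.10, adjusted p = 0.677), Sdhb 0.10 and Sdhc 0.04. The groups overlapped for all 4.

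In complex III, 6 of the 9 subunits had a fold change above 0. Cyc1, the cytochrome c1 that hands electrons to cytochrome c, was 67.1 ± 11.7 FPKM in control and 70.9 ± 11.1 in the knockout (SD, n = 4 each), and Uqcrfs1, the Rieske iron-sulfur protein, had a fold change of 0.10. Uqcrc2 had a log2 fold change of 0.14 (SE 0.07, adjusted p = 0.406 by limma) and Uqcrh, the hinge protein, 0.13 (SE 0.11, adjusted p = 0.619). Uqcrc1 had 7.17, 1.12, 1.62 and 1.35 FPKM in control and 2.48, 1.33, 1.19 and 0.742 in cKO libraries. Its log2 fold change of -0.45 (SE 0.41, adjusted p = 0.649 by limma) came from control replicate 1, without which it was 0.00.

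In complex IV, 9 of the 14 subunits tested had a fold change above 0. The 10 common isoforms had a median of 0.13, with 8 above 0 and Cox5a and Cox5b below it. Cox6c, a small membrane subunit, had 28.8, 28.5, 35.2 and 36.1 FPKM in control and 33.3, 37.6, 40.8 and 40.4 in cKO libraries. All but cKO replicate 1 were above the control range, and the log2 fold change was 0.24 (SE 0.10, adjusted p = 0.289 by limma). Cox6a1 had 0.18 (SE 0.18, adjusted p = 0.666), Cox7a2 0.18 (SE 0.10, adjusted p = 0.446), Cox4i1 0.16 (SE 0.15, adjusted p = 0.646) and Cox7b 0.14 (SE 0.12, adjusted p = 0.62).

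The 3 tissue isoforms that were tested had fold changes below 0, with no unadjusted p under 0.05. Cox4i2 had a log2 fold change of -0.23 (SE 0.18, adjusted p = 0.558 by limma) on 13 to 41 reads, Cox7a1 one of -0.08 and Cox6b2 one of -0.08. Cox6a2, under the filter, was 0.169 ± 0.0733 FPKM in control and 0.0421 ± 0.0488 in the knockout (SD, n = 4 each, two-sided exact permutation test, p = 0.0571), where 4 against 4 allows no p under 0.0286. Cox8b was 0.314 ± 0.117 and 0.455 ± 0.413 FPKM (p = 0.714 in the same exact test), and Ndufs3 was 0.104 ± 0.192 in control and listed at 0 in every cKO library (p = 0.429).

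Cox7a2l, a protein linked to supercomplexes of complexes III and IV, followed another pattern. It had 80.0, 97.8, 101 and 123 FPKM in control and 120, 112, 90.1 and 104 in cKO libraries, so that replicates 1 and 2 alone differed by 0.39 and replicates 3 and 4 alone by -0.20. The pseudogene Gm6969, which carries 17.8% of the longest Cox7a2l transcript, had 85.5, 3.54, 99.1 and 4.52 FPKM in control and 2.88, 5.67, 91.0 and 106 in cKO libraries. Control replicates 1 and 3, with high Gm6969, were below control replicates 2 and 4, respectively, and cKO replicates 1 and 2, with low Gm6969, were above cKO replicates 3 and 4. Reads of the gene and of its copy cannot be told apart here, and the part of this in the values was not tested.

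In complex V, 15 of the 17 subunits tested had a fold change above 0. Atp5c1, the gamma subunit that turns inside the F1 head, lies on chromosome 2 from 10056016 to 10080510. It had 70.5, 71.7, 82.9 and 90.0 FPKM in control and 84.7, 84.2, 99.4 and 97.8 in cKO libraries, and the groups overlapped. Its log2 fold change was 0.22 (SE 0.10, adjusted p = 0.324 by limma). Atp5md, a small membrane subunit, had 0.21 (SE 0.11, adjusted p = 0.369), Atp5g1 0.16 (SE 0.15, adjusted p = 0.652), Atp5l 0.15 (SE 0.13, adjusted p = 0.602) and Atp5o 0.13 (SE 0.15, adjusted p = 0.715). Atp5o shares 47.9% of its exon bases with other genes. Atp5a1, one of the low genes above, was at -0.32 (SE 0.21, adjusted p = 0.506). The catalytic Atp5b hardly differed, at 0.03 (SE 0.10). The 4 tested peripheral stalk subunits were all above 0, from 0.06 to 0.13.

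**Figure D3:**
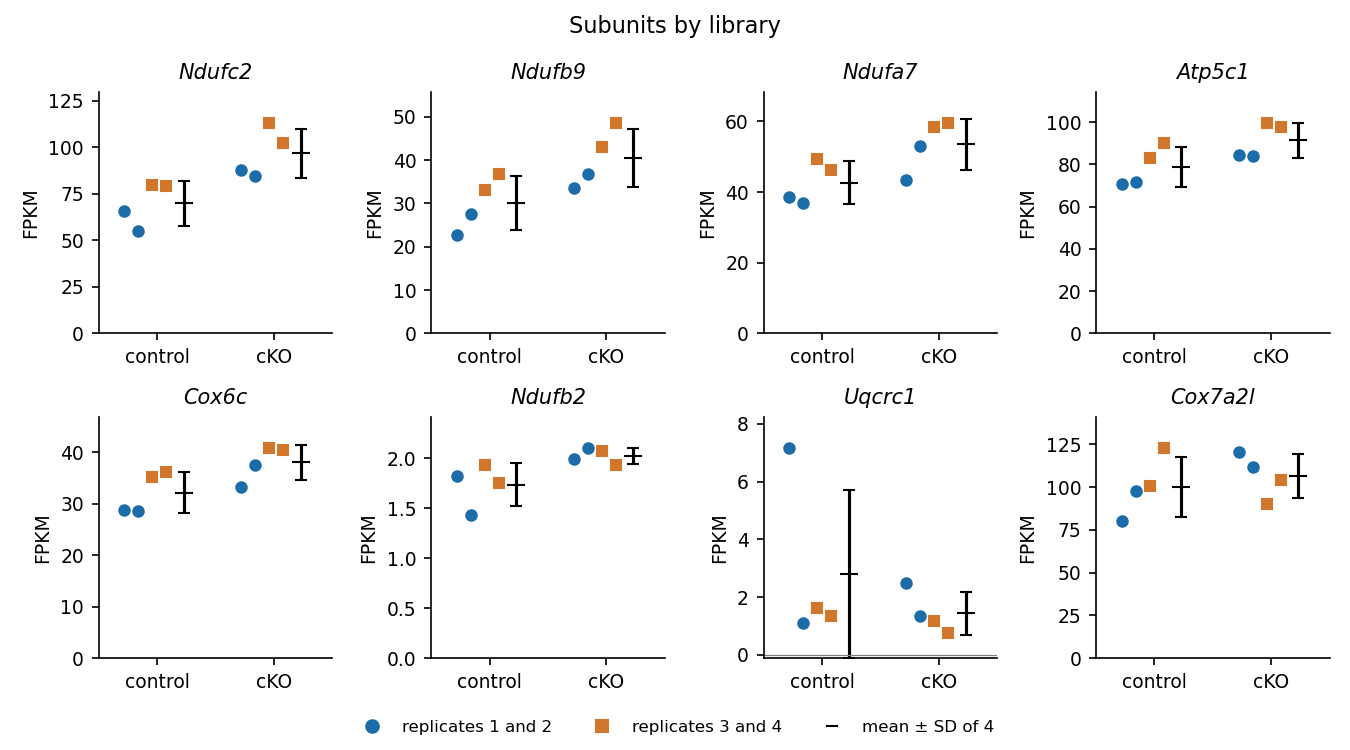
FPKM in each library of 8 subunits named in the text; circles are replicates 1 and 2, squares replicates 3 and 4, and bars the mean ± SD of 4 libraries. Squares lie above circles in both groups for Ndufc2, Ndufb9, Ndufa7, Atp5c1 and Cox6c, while Uqcrc1 has 1 control library at 7.17 FPKM.

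The larger difference among the libraries ran within the groups. For 66 of the 81 subunits (81.5%) replicates 1 and 2 were both below replicates 3 and 4, in the control and again in the cKO group, where 11.9% of all genes did so. Neither the labels nor the methods name a batch for these 2 sets of libraries, which were found in the values. Of the common complex IV isoforms 10 of 10 showed the pattern, of complex V 16 of 17, of complex II 4 of 4, of complex III 7 of 9 and of complex I 29 of 37. The 15 others included the low genes Uqcrc1, Atp5a1 and Ndufb2, the tissue isoforms Cox4i2, Cox6b2 and Cox7a1, and also Ndufa4l2 and Cox7a2l. The median difference of replicates 3 and 4 from replicates 1 and 2 was 0.31 on the log2 scale for the subunits and 0.01 for all genes, which is larger than the median of 0.10 between cKO and control.

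The same order was seen in the share of reads. The 87 subunits together took 0.719% and 0.721% of the reads on genes in control replicates 1 and 2 and 0.854% and 0.872% in control replicates 3 and 4. In cKO replicates 1 and 2 they took 0.739% and 0.770%, and in cKO replicates 3 and 4 0.920% and 0.825%. The mean log2(FPKM + 1) of the 81 was 5.06, 5.03, 5.33 and 5.38 in the control and 5.15, 5.16, 5.45 and 5.38 in the cKO libraries. Among replicates 1 and 2 both cKO libraries were above both control libraries on this mean, and among replicates 3 and 4 the control and cKO libraries numbered 4 were level.

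**Figure D4:**
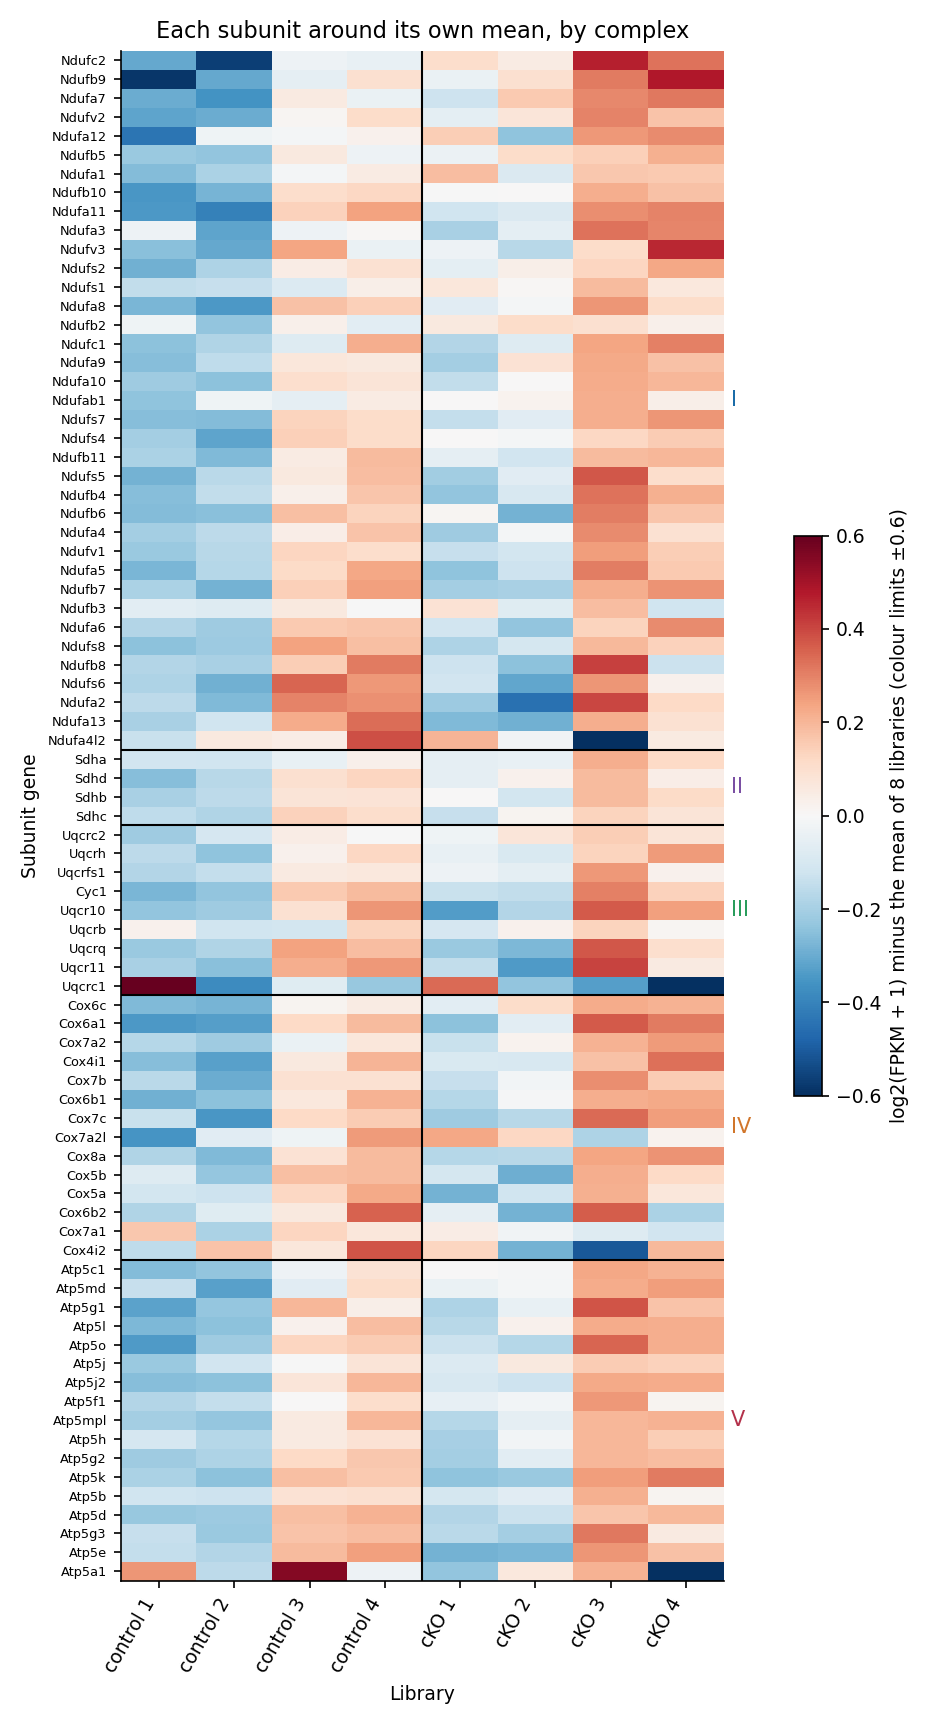
Log2(FPKM + 1) of the 81 subunits in each library minus the gene's mean over the 8 libraries, by complex and, within each, in order of fold change (colour limits ±0.6). Columns of replicates 1 and 2 are mostly blue and those of replicates 3 and 4 mostly red in both groups, for 66 of the 81 without overlap.

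Reads on genes were 16242668 to 19150336 in replicates 1 and 2 and 16123108 to 19896988 in replicates 3 and 4. Subunit genes are short, with a median length of 1587 bases against 3672 for all genes tested. With each library's trend over gene length removed, the median difference between the sets was 0.22 for the subunits, and 73 of the 81 were above 0. With the trend over GC content removed it was 0.28. Other gene lists were read for the same pattern. Of the 76 mitochondrial ribosomal protein genes tested 44 had replicates 1 and 2 below 3 and 4 in both groups, with a median difference of 0.21, and of the 77 cytosolic ribosomal protein genes 63 did, with a median of 0.30. The 5 adenine nucleotide and phosphate carriers all did, with a median of 0.24, as did 6 of 16 electron carriers and side entries (0.18) and 6 of 14 markers of mitochondrial content (0.13). Of the 47 assembly factors tested 11 did, and of 12 regulators of respiratory gene transcription 0 did, with a median of 0.00. Of 10 basal markers 6 did, with a median difference of 0.29, and their summed FPKM was 1825 to 2129 in replicates 1 and 2 and 2466 to 2722 in replicates 3 and 4. Of 10 luminal markers 4 did, with a median of 0.02, although the sum was 4642 to 5261 and 5660 to 5962 FPKM. Of 10 milk genes 4 did, with a median of 0.34, and the median was 0.29 for 7 white and 0.30 for 2 brown adipocyte markers tested. The median was below 0 for fibroblast (-0.24), endothelial (-0.18), pericyte and vascular smooth muscle (-0.18) and macrophage markers (-0.09). It was 0.05 for lymphocyte markers and 0.24 for the 2 skeletal muscle markers tested. The part of cell makeup or library preparation in the pattern was not tested.

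The difference between cKO and control was also taken within each set. It is no separate result, since each fold change above is the mean of its 2 within-set differences. Not every cKO library was higher, as cKO replicate 4 took 0.825% of the reads against 0.854% and 0.872% in control replicates 3 and 4. For the subunits the median difference was 0.12 in the set of replicates 1 and 2 and 0.09 in the other, and for all genes it was 0.00 in both. With the 2 sets as a block in limma, 27 of the 81 subunits (33.3%) had an unadjusted p under 0.05 and were higher, where 11.9% of all genes were, and 1, Ndufa13, was lower, where 9.47% of all genes were. After adjustment 4 of the 81 (4.94%) passed 0.05 and all were higher, where 1.79% of all genes did so and were higher. These were Ndufc2 (adjusted p = 0.0246), Ndufb9 (adjusted p = 0.0392), Atp5c1 (adjusted p = 0.0448) and Ndufa7 (adjusted p = 0.0498). The sets were read from the values and not from labels, so this block was chosen on the data to which it was applied. It follows a pattern held by 81.5% of the subunits and 11.9% of all genes, and the SE of Ndufc2 fell from 0.14 to 0.07 with it. The shares of subunits and of all genes are therefore not like for like, and no conclusion is drawn from them.

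**Figure D5:**
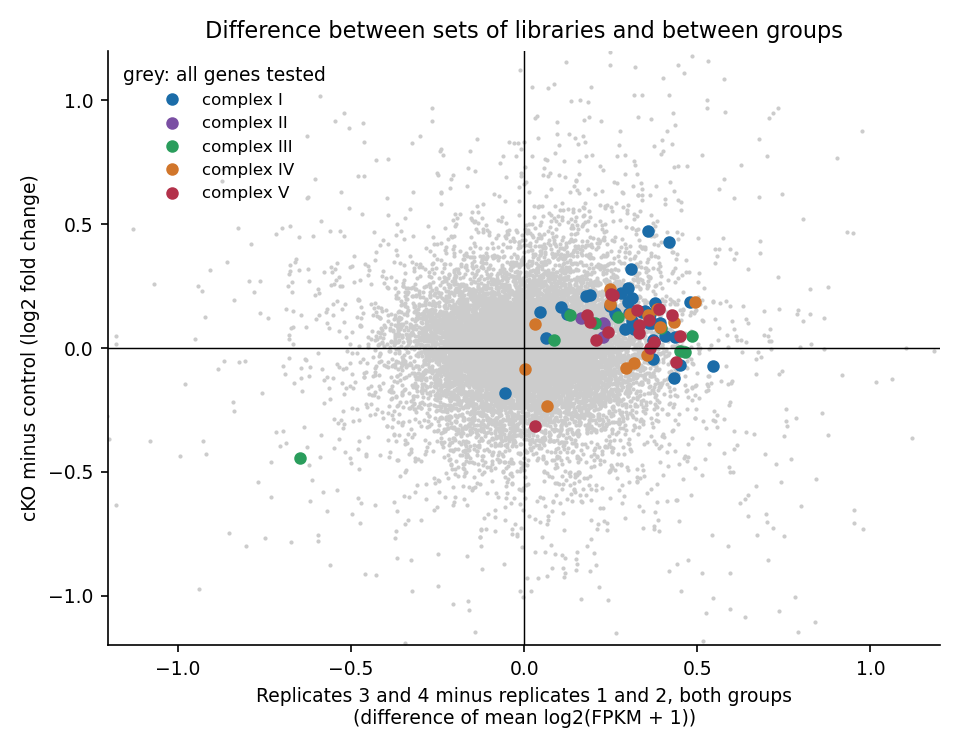
Difference between replicates 3 and 4 and replicates 1 and 2 over both groups (x, mean log2(FPKM + 1)) against the log2 fold change of cKO over control (y), for the 81 subunits in colours by complex and all genes tested in grey; axes end at ±1.2, which leaves out 66 genes. Of the 81 subunits 79 lie to the right of 0, at a median of 0.31, and 66 lie above 0, at a median of 0.10.

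Other genes of the mitochondrion were read in the same fit. All 12 tested subunits encoded in mitochondrial DNA had a fold change above 0, with a median of 0.30, and 7 of the 12 had an unadjusted p under 0.05 (58.3%, where 8.85% of all genes were higher) and 0 an adjusted one (0.892% of all genes). Their summed FPKM was 13739 to 14823 in control and 17194 to 18883 in cKO libraries. mt-Nd4 had a log2 fold change of 0.37 (adjusted p = 0.113) and mt-Nd5 0.30 (adjusted p = 0.157 by limma). These genes did not share the pattern of the sets, with a median of -0.07 between them. Whether they and the nuclear subunits differed in response was not tested.

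Assembly factors build the complexes but stay out of them. The median fold change was 0.06 for the 16 factors of complex I, 0.11 for the 3 of complex II, 0.09 for the 5 of complex III, 0.02 for the 19 of complex IV and 0.04 for the 4 of complex V that were tested. Of these 47 genes 5 (10.6%) were higher and 1 (2.13%) lower at an unadjusted p under 0.05, where 8.85% and 7.53% of all genes were, and 0 passed after adjustment. The share that was higher was near the background. Bcs1l, which inserts the Rieske protein into complex III, had 3.47 to 3.84 FPKM in control and 4.45 to 4.81 in cKO libraries (log2 fold change 0.27, adjusted p = 0.079 by limma). The complex IV factors Cmc1 (0.28, adjusted p = 0.139), Coa6 (0.42, adjusted p = 0.145) and Coa5 (0.24, adjusted p = 0.206) were also among the 5, as was Ndufaf7 of complex I (0.17, adjusted p = 0.297). The 1 lower gene was Cox10, which makes heme for complex IV, at 3.99 to 5.60 FPKM in control and 3.16 to 4.64 in cKO libraries (-0.29, adjusted p = 0.284). Ndufaf1 of complex I had 0.20 (adjusted p = 0.318). Sdhaf1 and Sdhaf2 of complex II, Ttc19 of complex III and Tmem70 and Atpaf1 of complex V had adjusted p values of 0.403 to 0.906.

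The counts of higher genes that follow are at an unadjusted p under 0.05, against 8.85% of all genes. Among 12 tested regulators of respiratory gene transcription, 1 (8.33%) was higher and the median was 0.06. It was Tfb1m, which modifies mitochondrial ribosomal RNA, with 0.496 to 0.842 FPKM in control and 0.895 to 1.16 in cKO libraries (adjusted p = 0.18). Sp1 had a log2 fold change of 0.17 (adjusted p = 0.349). Of 16 electron carriers and side entries 2 (12.5%) were higher, Etfa (0.32, adjusted p = 0.212) and Coq9 (0.32, adjusted p = 0.192). Of 5 adenine nucleotide and phosphate carriers tested 1 was higher, the uncoupling protein homologue Ucp2, at 37.5 and 66.6 FPKM (0.78, adjusted p = 0.152), while Slc25a4 had -0.10 (adjusted p = 0.734). Of 14 markers of mitochondrial content 3 (21.4%) were higher, with the citrate synthase gene Cs at 36.2 to 41.2 FPKM in control and 42.8 to 47.5 in cKO libraries (0.24, adjusted p = 0.132) and the chaperonin gene Hspd1 at 148 to 174 and 185 to 276 (0.50, adjusted p = 0.101). Of 76 mitochondrial ribosomal protein genes 4 (5.26%) were higher, under the background, among them Mrps18b (0.25, adjusted p = 0.0985) and Mrps6 (0.26, adjusted p = 0.173). None of these passed adjustment in limma.

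Markers of secretion and of other cell types were read beside the subunits. The summed FPKM of 10 milk genes was 4174 to 6038 in control and 9201 to 16315 in cKO libraries, and 9 of 10 were higher at an unadjusted (8.85% of all genes) and 4 at an adjusted p under 0.05 (0.588% of all genes), with Muc15 and Wap having the lowest p. The luminal factor Elf5 was 21.3 and 38.5 FPKM (adjusted p = 0.0591), and the luminal list summed to 4779 to 5962 in control and 4642 to 5958 FPKM in cKO libraries. Basal markers summed to 2004 to 2722 and 1825 to 2522 FPKM. The summed level in control and cKO libraries was 128 to 192 and 164 to 240 FPKM for white adipocyte markers, 4.94 to 8.72 and 8.80 to 17.6 for brown adipocyte markers and 1.25 to 1.88 and 1.18 to 2.29 for skeletal muscle markers. It was 63.4 to 79.9 and 47.5 to 74.7 for pericyte and vascular smooth muscle, 470 to 991 and 316 to 765 for fibroblast, 119 to 137 and 90.7 to 124 for endothelium, 815 to 987 and 776 to 905 for macrophage and 5.38 to 37.2 and 2.97 to 5.94 for lymphocyte markers. At an unadjusted p under 0.05, where 7.53% of all genes were lower and 8.85% higher, 3 of 10 basal markers were lower in cKO (Krt14, Trp63 and Cdh3) and 1 was higher (Oxtr), and 0 passed adjustment. At the same p 3 of 8 endothelial, 4 of 8 macrophage and 4 of 7 lymphocyte markers tested were lower and 3 of 7 white adipocyte markers were higher, of which the endothelial Vwf (adjusted p = 0.0268) and the adipocyte Cidec (adjusted p = 0.0377) passed adjustment in limma. None of the markers on these lists was at 0 in every library. The part of these shifts in the subunit values was not tested.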

How the data were processed

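RNA-seq libraries of mammary epithelial cells (4 control, 4 cKO mice) were made by the authors with a NEBNext Ultra kit, checked with FastQC, mapped to GRCm38 with Hisat2 and deposited as FPKM for 55933 genes. The submitters' processing notes also name StringTie 1.3.3b, featureCounts 1.5.0-p3 and mm9. Gene coordinates equal those of GENCODE vM21 (GRCm38) for 99.68% of the 55394 identifiers found there and for all 87 subunits. FPKM times gene length gave whole reads for 100% of values (tolerance 0.01 of a read), with size factors included. As the deposited unit was FPKM, the main test was limma 3.58.1 in R 4.3.3 on log2(FPKM + 1), pseudocount 1, for genes averaging 0.5 FPKM or more (empirical Bayes with trend, Benjamini-Hochberg adjustment over all genes tested). The fit was also run on simulated reads, but these held no difference between sets of libraries. They therefore do not check the fit for the pattern seen here. Single values under the filter were compared by exact permutation. Strand-specific counting is not stated.

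Subunits and gene lists were chosen with earlier results of these data known. The cytosolic ribosomal list, the grouping of subunits by role and the printed promoters were added after the values were seen. Named with full statistics are the subunits with the largest absolute fold change in each complex (6 in I, 2 in II, 3 in III, 6 in IV, 6 in V) and any with an adjusted p under 0.05. Levels are given for the highest and lowest members, members under the filter, Sdh genes, Cyc1 and tissue isoforms, and from each list the 2 genes with the lowest p. Ndufs1, Ndufa13, Uqcrfs1, Cox7a2l, Coa5, Cox10 and the named basal, endothelial and adipocyte markers were singled out after their values were seen. Marker lists for luminal and basal epithelium, milk genes, adipocytes, muscle, pericytes, fibroblasts, endothelium, macrophages and lymphocytes were summed per library. Nothing says that the mice came from separate litters. Reads on genes were 16123108 to 19896988 per library. Copies were sought with BLAST among annotated transcripts. Alternatives were another pseudocount, scalings, filters and gene sets, blocks, limma-voom on recovered reads, removed length or GC trends and each library left out. Python 3.11.15, pandas 2.3.3, numpy 2.4.6 and matplotlib 3.10.9 were used.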

Additional observations from a re-analysis of the deposited data

Results flagged for a closer look

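In 6 of 162 groups of 4 libraries (81 subunits, 2 groups each), 1 library lay far from the other 3. About 1 in 20, or 8.1, would be flagged if the values within a group were interchangeable. The libraries of a group fall into 2 sets for most subunits, so 8.1 is not the number due to chance in these data. Uqcrc1 had 7.17 FPKM (514 reads) in control replicate 1, while the other controls had 1.12 to 1.62. Ndufb8 was 19.9 FPKM in cKO replicate 3 against 12.3 to 13.4, and Ndufab1 was 7.54 FPKM in the same library against 6.36 to 6.52. Ndufa1 was 55.4 FPKM in cKO replicate 2 against 65.9 to 67.3. Among controls, Ndufa12 had 5.15 FPKM in replicate 1 while the others had 7.17 to 7.47, and Ndufa3 had 29.1 FPKM in replicate 2 while the others had 35.7 to 36.7. As each library was dropped, the log2 fold change of Ndufa12 stayed between 0.11 and 0.34, and that of Uqcrc1 reached 0.00 without control replicate 1.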

How the results depend on the processing

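The count of 6 subunits higher in cKO at an unadjusted p under 0.05 (7.41%, against 8.85% of all genes tested) was 3 with library totals in place of size factors (3.7% against 5.69%) and 10 with the gene length trend removed (12.3% against 9.46%). Deviations from the group means correlated by 0.137, 0.11, 0.116 and 0.0797 in the 4 same-numbered pairs, by 0.0873 to 0.178 between unlike numbers of the same set and by -0.21 to -0.072 across the sets, so the numbers were not taken as pairs: 1 same-numbered pair was under 0.1, and not every library correlated best with its own number. Blocked by replicate number the count was 25 (30.9% against 11.1%), 25 with the length trend also removed (30.9% against 11%), 24 with that block and the GC trend removed (29.6% against 10.3%) and 23 with that block in limma-voom (28.4% against 11.3%). Blocked by set (replicates 1 and 2, replicates 3 and 4) it was 27 (33.3% against 11.9%), and 28 with the length trend also removed (34.6% against 11.6%). Both blocks take up the difference between the sets, which a larger share of the subunits than of all genes shows. The blocked shares are therefore not like for like. Subunits lower at this p, 0 in the first fit, were 1 with that block (9.47% of all genes), 1 with it and the length trend removed (9.99%), 1 with no filter (4.8%) and 2 in limma-voom blocked by replicate number (11.1%). Adjusted calls, 0 in the first fit, were 4 blocked by set (4.94%, against 1.79% of all genes called higher), 4 with that and the length trend removed (4.94% against 1.82%), 3 in limma-voom blocked by replicate number (3.7% against 2.57%) and 1 with the replicate block and length trend removed (1.23% against 0.271%), all higher in cKO; the cause was not tested. Subunits without overlap, 2 and higher, were 1 in TPM (3.5% of all genes) and 1 with library totals (3.81%). With 1 library left out in turn, the unadjusted count was 1 to 10 higher (1.23% to 12.3%, against 7.19% to 8.69% of all genes) and 0 to 1 lower (6.06% to 7.88% of all genes), the adjusted count 0 to 0 (0% to 0.515%), those without overlap 2 to 8 higher (2.47% to 9.88%, against 7.6% to 8.84%) and 0 to 1 lower (6.02% to 7.76%), those above 0 were 52 to 75 and the median 0.04 to 0.16. The fold change of Uqcrc1 ran from -0.65 to 0.00344 in these fits. It was the only one to reverse among the subunits with the largest absolute fold change in each complex. Other named subunits, such as Atp5b and Sdhc, were not followed in these fits. Removal of the GC trend, and of the length trend with the block by set, was chosen after seeing the data. Depth limits the subunits with few reads, such as Cox4i2.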
